A study of Rattus norvegicus with 46 samples.

Results

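The aquaporin family of the rat duodenum was followed at the top and the bottom of the villus under differing iron supply, through the genes Aqp1, Aqp3, Aqp4, Aqp7, Aqp8 and Aqp11. They were chosen by symbol, as the probe sets annotated with exactly 1 of these symbols, which gave 6 genes and 9 probe sets out of 14217 genes and 20826 single-symbol probe sets. All 9 passed the filter on low values. Aqp1 had 2 probe sets and Aqp4 had 3, the brightest of which is meant where no number is given. The set was drawn up with earlier results of these arrays known, among them a lower level of Aqp8 and Aqp1 in iron-deficient than in control rats, so that contrast is given below as a description with no test.

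Affymetrix arrays were hybridised with RNA from the top and from the bottom of the villus of the same 22 rats, 44 arrays in all. The 3 repleted rats (+/+, Wistar) were 1 month old at the start, ate a low-iron diet while 2 to 3 ml of blood was drawn every 3 days over 4 weeks, and then had 50 µM ferric ammonium citrate in the drinking water for 3 days. The 4 deficient rats (+/+) had the same diet and bleeding without the iron water. The Belgrade rats (b/b, on a Wistar background) carry a missense mutation in Slc11a2, which encodes the apical iron importer, and their ages are not given. Of these, 4 ate a normal diet, 4 were fed iron for 3 days and 3 were fed iron for 6 days. The 4 control rats (+/+, 1 month old) ate a normal diet, and every rat was fasted overnight. A further +/+ rat from a separate experiment gave 1 array of the lower and 1 of the upper crypt. Levels are log2 of normalized intensity on a scale where 1 unit is a doubling, and the 40th percentile of an array lay at 8.99, so that a level under 8.99 is read only as low.

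Aquaporins are membrane channels that let water follow osmotic gradients, and the subgroup called aquaglyceroporins also passes glycerol. In the small intestine, water moves with the sodium, sugar and peptide taken up by villus cells and with the chloride secreted by crypt cells. Villus cells are born in the crypt and move toward the tip as they mature. The villus bottoms here also carried crypt markers. Cell cycle markers (11 of 12 listed genes measured) were at 12.35 to 13.29 in the bottoms, 12.76 in the lower crypt array and 9.21 to 11.53 in the tops. Paneth and crypt base markers (10 of 12) were at 11.45 to 13.27, 12.20 and 9.47 to 11.18. Top against bottom therefore compares older absorptive cells with younger ones and crypt tissue, mixed with whatever stroma and blood the sections held.

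The start regions of 3 members are shown because Aqp8 set the control rats apart, Aqp4 had the opposite pattern, and Aqp3 had a steep gradient. Each is 250 bases before to 50 after the annotated start in RefSeq (GRCr8), 5′ to 3′. Capitals mark CACGTG, known as an E-box, a palindrome that also holds the ACGTG core of hypoxia response elements on both strands.
Aqp8, chr1:187424193-187424492, plus strand: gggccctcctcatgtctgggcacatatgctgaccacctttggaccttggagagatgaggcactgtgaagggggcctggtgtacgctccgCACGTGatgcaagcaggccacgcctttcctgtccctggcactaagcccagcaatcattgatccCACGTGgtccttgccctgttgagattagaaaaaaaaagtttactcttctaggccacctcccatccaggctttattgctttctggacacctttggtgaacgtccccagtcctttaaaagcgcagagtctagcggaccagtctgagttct
Aqp3, chr5:61040634-61040933, minus strand: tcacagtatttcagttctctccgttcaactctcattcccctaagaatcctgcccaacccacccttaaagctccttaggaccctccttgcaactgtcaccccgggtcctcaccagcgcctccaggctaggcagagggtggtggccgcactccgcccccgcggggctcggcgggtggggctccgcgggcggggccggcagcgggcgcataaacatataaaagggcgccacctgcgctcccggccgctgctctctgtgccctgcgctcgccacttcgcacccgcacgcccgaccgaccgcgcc
Aqp4, chr18:6798793-6799092, minus strand, the first of 2 annotated windows: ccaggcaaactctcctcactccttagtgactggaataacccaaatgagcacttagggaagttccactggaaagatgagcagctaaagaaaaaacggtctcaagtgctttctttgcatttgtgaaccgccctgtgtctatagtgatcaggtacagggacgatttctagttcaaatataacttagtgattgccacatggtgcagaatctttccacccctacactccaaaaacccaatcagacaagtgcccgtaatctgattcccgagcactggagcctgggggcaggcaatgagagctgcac
The motifs searched, on both strands, were the hypoxia core ACGTG, the E-box CACGTG that contains it, the core GATAA bound by GATA factors and the core TTTAT bound by Cdx factors. Aqp8 held CACGTG 2 times, each of which also counts as ACGTG on either strand, and TTTAT 1 time. Aqp3 held TTTAT 2 times and the Aqp4 window held none of these. Neither Aqp1 nor Aqp11 held ACGTG, and Aqp7 had no start region in the set used. Among 33469 windows of the same length, 19.3% held ACGTG, 6.42% held CACGTG, 26.5% held GATAA and 42.5% held TTTAT, so a match here is a description of the letters alone. By gene order, Aqp7 and Aqp3 are next to each other on chromosome 5, with 0 protein-coding genes between them, and Aqp8 and Aqp11 are both on chromosome 1.

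Some arrays stood apart. Among Belgrade rats without iron, rats 1 and 2 hardly differed in either segment, nor did rats 1 and 2 of the control group, and each pair was averaged and counted as 1 sample. This left 20 counted samples, namely 3 repleted, 4 deficient, 3 Belgrade, 4 Belgrade with iron for 3 days, 3 with iron for 6 days and 3 control. Markers of exocrine pancreas (15 of 17 listed genes measured) had a mean level of 7.70 to 8.43 in most villus bottoms, but 15.44 in deficient rat 1, 12.14 in Belgrade rat 3, 12.82 and 11.65 in 1 rat of each iron-fed Belgrade group, and 13.90 and 13.80 in control rats 1 and 2. Smooth muscle and stroma markers (14 of 14) reached 15.48 in the bottom of repleted rat 3 and 15.68 in that of control rat 3, against 12.57 to 14.71 in the others. In the same 2 arrays the enterocyte markers (10 of 12) were at 12.45 and 13.40, against 14.05 to 15.75. The enterocyte markers in the villus tops were at 16.08 to 17.03 in every rat. Repleted rat 3 stood apart at the top as well. The robust SD of its differences over bright probe sets was 0.71 from rat 1 and 0.729 from rat 2 of its group. These were the largest top values of any pair compared, and its top array had the highest median intensity, 1179. Slc11a2 averaged 16.29 ± 1.39 in repleted, 16.95 ± 0.32 in deficient, 17.04 ± 0.04 in Belgrade and 15.55 ± 0.24 in control rats (SD, n = 3, 4, 3 and 3), and the repleted rats spread from 14.70 to 17.31.

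Averaged over the 6 groups, the family split in 2 directions along the villus. Over all groups, limma called 6 of the 9 probe sets between top and bottom, against 54.5% of the 26517 probe sets tested, so the count itself is near the background. Aqp3, Aqp7, Aqp8 and Aqp11 were higher at the top (4 called, background 25.6%), and Aqp1 and Aqp4 were lower (2 called, background 28.9%). The differences ranged from 4.88 for Aqp3 to -1.40 for Aqp1, while the median of all probe sets was 0.02. Outside the control group, however, Aqp8 was higher at the top in only 8 of 18 rats, and Aqp4 in 9 of 18. Their directions thus describe the average and not each group. In bulk sections, fewer cells of a type and less RNA per cell cannot be told apart.

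The steepest gradients were those of the aquaglyceroporins. Aqp7, the channel through which glycerol leaves fat cells, lay between 13.60 and 16.28 in the villus tops (median 14.93) and between 8.83 and 11.20 in the bottoms (median 10.23). The ranges did not overlap, and the top was higher in 22 of 22 rats. The difference was 4.87 ± 0.15 (SE; adjusted p = 5.82e-17), or 29.2-fold. Within groups it was called in each of the 6, from 4.10 in Belgrade rats (adjusted p = 2.35e-07) to 5.42 in repleted rats (adjusted p = 2.42e-09). Adipocyte markers (6 of 7 measured) were at 9.10 to 10.51 in the tops and 8.18 to 9.56 in the bottoms, and their part in the Aqp7 gradient was not tested.

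Aqp3, an aquaglyceroporin of basolateral membranes, was at 10.12 to 14.10 in the tops (median 12.40) and 5.82 to 9.09 in the bottoms (median 8.12), most of which lay under 8.99. Again the top was higher in 22 of 22 rats, by 4.88 ± 0.18 (adjusted p = 7.2e-16), or 29.3-fold on the log2(intensity + 44) scale, which understates the change of a low value. The gradient was called in each group and ranged from 4.22 in Belgrade rats fed iron for 6 days to 5.34 in repleted rats. Aqp3 and Aqp7 therefore shared a direction in every rat.

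Aqp11, an intracellular member of the family, had a shallower gradient, with tops of 12.10 to 13.52 (median 12.74) and bottoms of 10.07 to 12.58 (median 12.04). Its top was higher in 21 of 22 rats, by 0.95 ± 0.16 (adjusted p = 1.62e-05). The difference was 1.20 in repleted rats (adjusted p = 0.0243) and 0.16 without repleted rat 3 (adjusted p = 0.757), the rat whose bottom array had high stroma markers. Deficient and Belgrade groups had 0.47 to 0.79, none of them called, although the iron-fed Belgrade groups passed with repleted rat 3 kept out of the shared spread (adjusted p = 0.00895 after 3 days and 0.0158 after 6 days). Control rats had 2.03 ± 0.40 (adjusted p = 0.000478), called under 12 of 12 alternatives with values of 1.48 to 2.37. Control rat 3, whose bottom array also had high stroma markers, had the lowest bottom level of that group (10.39, against 13.52 at its top).

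Aqp1, the water channel of red blood cells and of capillary endothelium, ran the other way. Tops were at 9.22 to 12.33 (median 10.04) and bottoms at 10.71 to 13.42 (median 11.42), with the top lower in 20 of 22 rats and a difference of -1.40 ± 0.14 (adjusted p = 1.23e-08). The second probe set differed by only -0.23 (adjusted p = 0.151), and was called with values as deposited (-0.46, 0.00431) and with median centring (-0.35, 0.0248), so the size of the Aqp1 gradient depended on the probe set. The gradient was called in the 5 groups other than control, from -2.15 in repleted to -1.27 in Belgrade rats fed iron for 3 days, and Belgrade rats on a normal diet (-1.38, adjusted p = 0.0088) lost the call without rats 1 and 2 (0.0524) or rat 3 (0.0617). In control rats the leading probe set was at 11.73, 11.80, 10.34 and 12.33 in the tops and 11.32, 11.85, 12.26 and 12.14 in the bottoms, and the difference of -0.52 was not called (adjusted p = 0.36). The highest bottom levels, 13.42 in repleted rat 3 and 12.26 in control rat 3, were in the stroma-marked arrays. Endothelial markers (13 of 14 measured) were at 10.58 to 11.18 in the tops and 10.19 to 11.10 in the bottoms. Those ranges overlapped, with group medians of 10.86 to 11.07 in the tops and 10.40 to 10.67 in the bottoms. Red blood cell markers (5 of 9) were at 8.58 to 11.85 in the tops and 9.00 to 11.32 in the bottoms. The part of either list in the Aqp1 gradient was not tested.

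**Figure D1:**
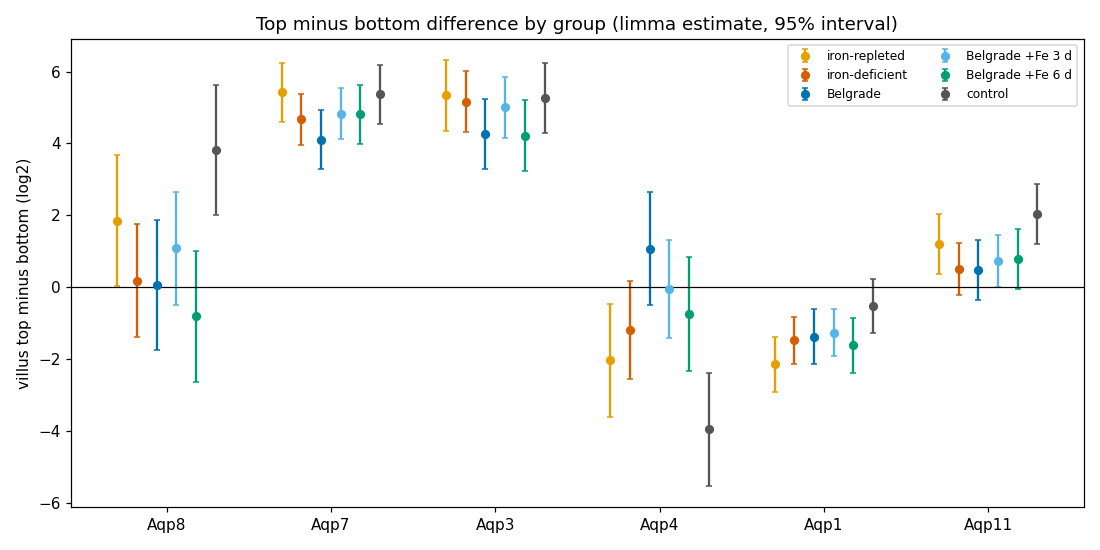
Difference between villus top and bottom (log2, limma estimate with 95% interval) for the 6 aquaporin genes in each group. Aqp7 and Aqp3 stay above 4 in every group, while Aqp8 is at 1.85 or less outside the control rats and at 3.82 in them, and Aqp4 is at 1.07 in Belgrade rats and at -3.96 in control rats.

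Aqp8, a channel for water that also passes ammonia and hydrogen peroxide, was the member whose level set the control rats apart. At the villus top it was at 8.94, 7.78 and 12.04 in repleted rats and at 8.32, 8.73, 7.49 and 8.79 in deficient rats. Belgrade rats had 10.10, 9.93, 6.72 and 9.51 on a normal diet, 11.51, 9.35, 7.13 and 9.33 after 3 days of iron, and 7.09, 6.75 and 9.05 after 6 days. Control rats had 14.75, 14.75, 12.61 and 13.92. All 4 control tops thus lay above all 18 others, of which repleted rat 3 was the highest. As deposited, the intensity was 126 to 432 in deficient tops and 7060 to 29900 in control tops.

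At the villus bottom the groups overlapped. Aqp8 was at 9.57, 7.20 and 6.44 in repleted rats, 9.41, 6.65, 8.17 and 8.40 in deficient rats, and 6.74 to 10.44 in Belgrade rats, against 11.34, 11.32, 8.77 and 9.71 in control rats. Rats fed iron had 6.46 to 10.09 after 3 days and 7.67 to 9.22 after 6 days. Control rats 1 and 2, with the 2 highest bottom levels, were also those with high pancreas markers. Pancreas markers in the tops of control rats 3 and 4 were at 8.23 and 8.58, within 7.67 to 8.60 where most other tops lay, and Aqp8 there was 12.61 and 13.92. In the tops of control rats 1 and 2, where Aqp8 was 14.75 in both, these markers were at 10.68 and 10.91, above all other tops. Their part in the Aqp8 level was not tested.

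**Figure D2:**
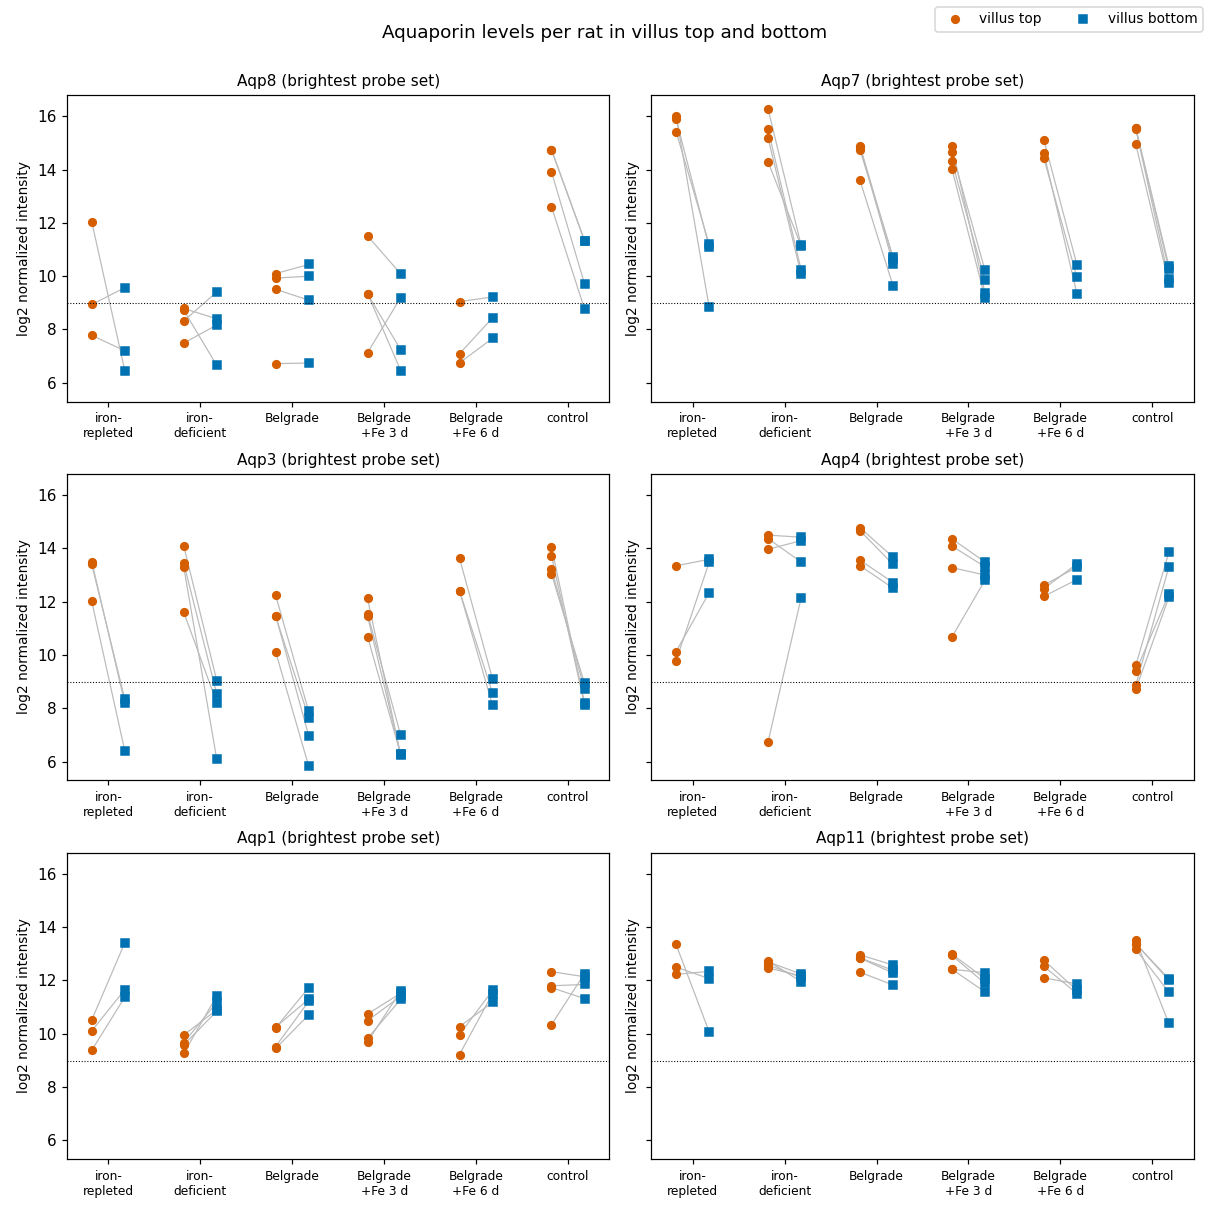
Log2 level of the 6 aquaporin genes in every rat by group, with villus tops as orange circles, villus bottoms as blue squares, a grey line joining the arrays of a rat and a dotted line at the 40th percentile of 8.99. Aqp8 tops of control rats lie between 12.61 and 14.75, above every other rat, and Aqp4 tops of control rats lie between 8.71 and 9.61.

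Differences of Aqp8 from control rats were largest at the top. The deficient minus control difference, part of what chose the gene, was -5.43 ± 0.97 at the top, -1.78 ± 0.96 at the bottom and -3.60 ± 0.77 for the mean of both (SE). Comparisons of repleted and of Belgrade rats with control use the same control rats. Repleted minus control was -4.17 ± 1.04 at the top (adjusted p = 0.0745) and -3.19 ± 0.82 for the mean (0.0838), and without repleted rat 3 the top value was -5.40 (adjusted p = 0.0173). Belgrade minus control was -5.01 ± 1.04 at the top (95% interval -7.17 to -2.85, adjusted p = 0.0514) and -3.13 ± 0.82 for the mean (0.309). Neither passed the test. The groups did not overlap at the top, which describes 3 counted samples a group and carries no test. For this and the other members, the share of all probe sets that separate groups likewise was not counted. The Belgrade call at the top was made under 7 of 16 alternatives, with values of -5.64 to -4.00 and adjusted p-values of 0.00594 to 0.366 over all 16. Every rat counted separately (0.00594) and the rat number added as a block (0.00793) were among the 7, and both count the near identical rats separately. Another kept repleted rat 3 out of the shared spread (0.0124), a setting chosen after the data were seen.

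Between repleted and deficient rats, Aqp8 showed no called difference. Repleted minus deficient was 0.41 for the mean (95% interval -1.17 to 2.00, adjusted p = 0.864) and 1.25 at the top (interval -0.77 to 3.27, adjusted p = 0.615), an interval that holds both no change and a rise of several doublings. The top value was 0.03 without repleted rat 3 (adjusted p = 0.999) and 2.16 without repleted rat 2 (0.28). From the lowest to the highest mean top level, the groups were Belgrade fed iron for 6 days (7.63 ± 1.24), deficient (8.33 ± 0.60), Belgrade (8.75 ± 1.77), Belgrade fed iron for 3 days (9.33 ± 1.79), repleted (9.59 ± 2.20) and control (13.76 ± 1.08; SD, n = 3, 4, 3, 4, 3 and 3). The gap of 4.17 between repleted and control exceeded both SDs, and the ranges of all other neighbours overlapped. At the bottom all neighbours overlapped, with group means of 7.73 to 9.94.

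An Aqp8 gradient along the villus was called in control rats and in none of the other groups. Outside the control group the median level was 8.87 in the tops and 8.42 in the bottoms. Both are under 8.99, where a gradient is hard to see. The control tops also belong to the deficient minus control contrast that went into the choice of Aqp8. The call in control rats is therefore not independent of that choice. Top minus bottom of Aqp8 was 1.85 in repleted rats (adjusted p = 0.11), a value that turned on single rats, with -0.02 without repleted rat 3 (0.988) and 3.09 without repleted rat 1 (0.0198). It was 0.17 in deficient (0.899) and 0.06 in Belgrade rats (0.979), with 1.08 and -0.81 in Belgrade rats fed iron for 3 and 6 days. Control rats had 3.82 ± 0.88 (adjusted p = 0.00188, called under 12 of 12 alternatives, 3.62 to 4.03). The difference between gradients, Belgrade minus control, was -3.76 ± 1.24 (adjusted p = 0.408) and was not called. Over all groups, Aqp8 was higher at the top in 12 of 22 rats, by 1.03 ± 0.34 (adjusted p = 0.0137).

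Aqp4, a water channel known from astrocytes, gastric parietal cells and the basolateral membrane of crypt cells in rat, had the opposite pattern at the top. It was at 10.13, 13.35 and 9.79 in repleted rats, at 13.97, 14.50, 14.37 and 6.73 in deficient rats and at 13.35, 13.56, 14.67 and 14.78 in Belgrade rats. Iron-fed Belgrade rats had 10.67, 14.09, 13.28 and 14.36 after 3 days and 12.49, 12.20 and 12.62 after 6 days. Control rats had 9.38, 8.71, 8.86 and 9.61. All control tops lay below those of every other rat except deficient rat 4, whose 6.73 was the lowest of the 22.

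At the villus bottom the Aqp4 levels of the groups overlapped, with 12.34 to 13.59 in repleted, 12.14 to 14.42 in deficient, 12.51 to 13.67 in Belgrade and 12.17 to 13.86 in control rats. Differences between group means were larger at the top. Belgrade minus control was 5.13 ± 1.35 at the top (95% interval 2.33 to 7.93, adjusted p = 0.177, or 4.95 and 0.0343 with every rat counted separately), 0.10 at the bottom (0.976) and 2.62 ± 0.87 for the mean (0.626). For deficient minus control, a contrast that went into the choice of members, the top difference was 3.22 ± 1.26. Repleted minus deficient was -0.88 for the mean (adjusted p = 0.687), and without deficient rat 4 it was -2.06 (0.0392), so that 1 rat decided this call.

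**Figure D3:**
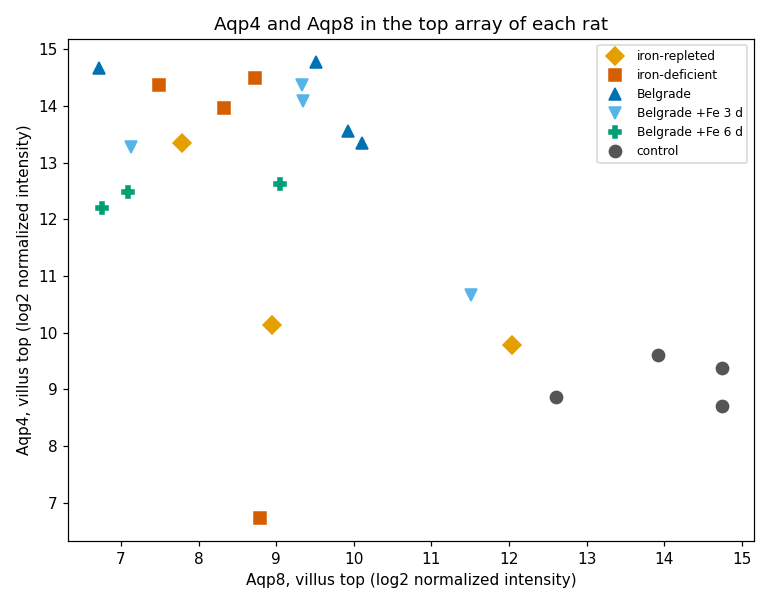
Log2 level of Aqp4 against that of Aqp8 in the villus top of each rat, coloured by group. Deficient rat 4 has low values of both, 8.79 for Aqp8 and 6.73 for Aqp4, and control rats stand alone at Aqp8 of 12.61 or more with Aqp4 of 9.61 or less.

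Of the 6 groups, control rats had the Aqp4 gradient of the largest size. Its top minus bottom difference was -2.04 in repleted rats (adjusted p = 0.0418), a call that held under 5 of 11 alternatives. It was lost without repleted rat 3 (-1.22, 0.338) or rat 1 (-1.97, 0.123), with the smaller pseudocount (0.0555), with values as deposited (0.064), with median centring (0.0606) and without the trend (0.0896). Deficient rats had -1.19 (adjusted p = 0.192), or 0.21 without deficient rat 4 (0.816). Belgrade rats had 1.07 (0.401) and iron-fed Belgrade rats -0.06 and -0.75. Control rats had -3.96 ± 0.76 (adjusted p = 0.000349, called under 12 of 12 alternatives). The Belgrade minus control difference of gradients was 5.03 ± 1.08 (95% interval 2.79 to 7.26, adjusted p = 0.201). It passed when the arrays of repleted rat 3 were kept out of the shared spread (adjusted p = 0.012), a setting chosen after the data were seen, and when every rat was counted separately (4.78, 0.0304).

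The second Aqp4 probe set was also higher in the tops of all Belgrade rats on a normal diet than in those of control rats. Belgrade rats had 10.40, 10.54, 12.05 and 13.15 and deficient rats 11.56, 12.38, 12.36 and 7.69, against 6.02, 7.06, 8.67 and 6.66 in control rats. Its top minus bottom difference in control rats was -2.62 ± 0.69 (adjusted p = 0.00611), lost without control rats 1 and 2 (0.0522) or without control rat 4 (0.0647). Over all groups, however, it differed by only -0.15 (adjusted p = 0.67), where the leading probe set gave -1.15 ± 0.30 (0.0021). The third probe set was mostly under 8.99 in the tops (5.76 to 11.16, median 7.78), and its difference in control rats was -1.15 (0.453).

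Group comparisons on the mean of top and bottom called no member. For repleted against deficient rats, limma called 0 of the 9 probe sets, against 0% of all 26517. At an unadjusted p under 0.05 there were 2 of the 9, against 12.8% of all. Repleted against control gave 0 of 9 called (all probe sets 0.0679%) and 2 of 9 unadjusted (all 15.1%). Belgrade against control gave 0 of 9 called (all 0.0113%) and 5 of 9 unadjusted (all 6%), and Belgrade against deficient 0 of 9 called (all 0%) and 1 of 9 unadjusted (all 4.6%). With so few probe sets called anywhere in these comparisons, a count of 0 members is near the background.

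In top arrays alone the count called was again 0 of 9 in Belgrade against control (all 0.0905%) and in repleted against control (all 0.207%). Unadjusted, there were 7 of 9 in Belgrade against control, where all probe sets had 6.57%, and 4 of 9 in repleted against control, where all had 15.4%. These 9 probe sets stand for 6 genes, and the control rats are those behind the choice of Aqp8 and Aqp1. For the change of gradient, limma called 0 of 9 in Belgrade against control (all 0%), with 5 of 9 unadjusted (all 7.56%), and 0 of 9 in repleted against deficient (all 0%), with 0 of 9 unadjusted (all 12.1%).

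Within single groups, the top minus bottom calls numbered 5 of 9 in repleted rats (background 34.1%), 3 in deficient (30.9%), 3 in Belgrade (18.8%), 3 and 3 in Belgrade rats fed iron for 3 and 6 days (27.1% and 24.4%) and 6 in control rats (25.8%). In deficient and all Belgrade groups the called members were Aqp1, Aqp3 and Aqp7. In control rats they were Aqp3, Aqp7, Aqp8 and Aqp11 with 2 probe sets of Aqp4, and Aqp1 was not among them. These counts were not tested against each other.

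The other members differed less between groups. Aqp3 at the top was at 11.45, 11.48, 10.12 and 12.24 in Belgrade rats, against 13.05, 13.24, 13.72 and 14.07 in control rats. The groups did not overlap, a separation that was not counted over all probe sets. The difference was -2.37 ± 0.56 (adjusted p = 0.106), called only where every rat was counted separately (-2.20, 0.0214, and with the rat number added as a block, 0.00721). Deficient rats, at 13.45, 13.31, 11.61 and 14.10, overlapped control rats, and so did repleted rats, at 12.01, 13.40 and 13.50. Belgrade minus deficient at the top was -1.84 ± 0.52 (adjusted p = 0.759).

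Aqp7 at the top was at 14.86, 14.90, 13.60 and 14.75 in Belgrade rats, against 15.55, 15.57, 14.96 and 15.53 in control rats, and the difference of -0.94 ± 0.37 was not called (adjusted p = 0.598). Aqp7 tops averaged 15.79 ± 0.31 in repleted, 15.32 ± 0.82 in deficient and 15.35 ± 0.34 in control rats (SD, n = 3, 4 and 3), with overlapping ranges. Deficient minus control was -0.03 ± 0.35 at the top. The mean top level of Aqp7 lay within 1 unit of control in every group.

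Aqp11 at the top was at 12.50, 12.23 and 13.35 in repleted, 12.58, 12.47, 12.70 and 12.73 in deficient and 12.96, 12.84, 12.31 and 12.85 in Belgrade rats, against 13.38, 13.38, 13.52 and 13.17 in control rats. All control rats except rat 4, which was below repleted rat 3, were above every other rat. The difference from control was -0.67 ± 0.26 in repleted rats (adjusted p = 0.23, or 0.049 without repleted rat 3), -0.74 ± 0.25 in deficient rats, given with no test, and -0.68 ± 0.26 in Belgrade rats (adjusted p = 0.587).

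Aqp1 at the top was at 10.11, 9.38 and 10.52 in repleted, 9.95, 9.26, 9.58 and 9.67 in deficient and 10.25, 9.52, 10.22 and 9.45 in Belgrade rats, against 11.73, 11.80, 10.34 and 12.33 in control rats. Control rat 3 overlapped the repleted rats, and the other 3 control rats lay above all of these. The top difference from control was -1.48 ± 0.48 in repleted (adjusted p = 0.146) and -1.63 ± 0.48 in Belgrade rats (0.266, or -1.69 and 0.0421 with every rat counted separately). On the mean of both segments, deficient minus control was -1.38 ± 0.30 for the leading probe set and -0.46 ± 0.27 for the second. In this contrast the Aqp1 probe sets differed in size, and for repleted minus control they differed in sign (-0.66 and 0.23). Red blood cell markers in the tops ran from 8.58 to 10.97 in repleted, 9.54 to 11.85 in deficient and 10.02 to 10.95 in Belgrade rats, against 9.02 to 9.64 in control rats. Endothelial markers there ran from 10.82 to 11.13, 10.58 to 11.13 and 10.68 to 10.98, against 10.84 to 11.09 in control rats. The part of either list in the Aqp1 differences between groups was not tested.

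**Figure D4:**
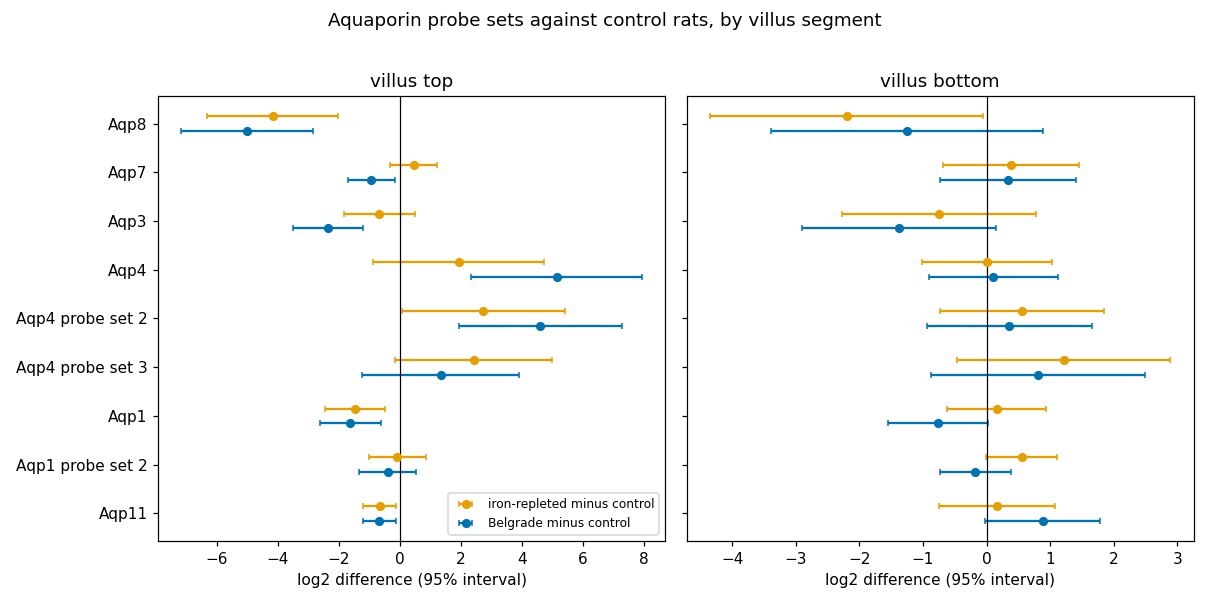
Difference from control rats (log2, limma estimate with 95% interval) of the 9 aquaporin probe sets in repleted and in Belgrade rats, for villus tops and villus bottoms. At the top, Aqp8 is lowest in both, at -4.17 and -5.01, and Aqp4 in Belgrade rats is highest, at 5.13, while at the bottom Aqp4 is at 0.01 and 0.10.

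Iron feeding of Belgrade rats gave no called member. For 3 days of iron against none, for 6 days against none and for 6 against 3 days, limma called 0 of 9 probe sets, against 0% of all probe sets each time. At an unadjusted p under 0.05 there were 0 of 9 for 3 days against none (all 2.75%), 1 of 9 for 6 days against none (all 4.22%) and 1 of 9 for 6 against 3 days (all 4.84%). Aqp8 differed from unfed Belgrade rats by 0.07 after 3 days (95% interval -1.52 to 1.66) and by -0.68 after 6 days (interval -2.38 to 1.02). Xist was high in 3 of 3 Belgrade rats fed iron for 6 days, 1 of 4 fed for 3 days and 1 of 4 unfed. Days of iron and sex as read from Xist therefore went together in these groups, also for the Aqp3 values that follow. The single member past an unadjusted p under 0.05 was Aqp3. Its tops were at 10.12 to 12.24 without iron, 11.54, 10.69, 11.45 and 12.12 after 3 days, and 12.40, 13.63 and 12.40 after 6 days, so the 6-day tops lay above all others of this strain. Its mean of top and bottom was higher after 6 days than without iron by 1.56 ± 0.52 (adjusted p = 1) and than after 3 days by 1.76 ± 0.49 (adjusted p = 0.877), neither of which passed. The bottoms in these means were at 5.82 to 7.88 without iron, 6.23 to 6.99 after 3 days and 8.11 to 9.09 after 6 days. Most lay under 8.99 and are read only as low. In the tops alone the differences were 1.54 and 1.36.

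In the crypt arrays of a single +/+ rat, with no replicate, the leading probe sets other than those of Aqp1 were higher in the upper crypt. From lower to upper crypt, Aqp7 was at 10.08 and 13.00, Aqp3 at 6.34 and 9.18, Aqp8 at 9.42 and 11.24 and Aqp11 at 12.42 and 13.39. Aqp1 was at 10.95 and 9.50. Aqp4 was at 13.91 and 15.25, with the upper crypt value the highest of all 46 arrays, and its second probe set at 10.38 and 12.82. Thus Aqp4 was higher in the upper than in the lower crypt, and in control rats it was lower at the villus top (8.71 to 9.61) than at the villus bottom (12.17 to 13.86). The upper crypt array had enterocyte markers of 16.66, within the range of the villus tops, against 15.46 in the lower crypt, and cell cycle genes of 11.04 against 12.76. Villus bottoms of control rats had enterocyte markers of 13.40 to 15.39 and cell cycle genes of 12.98 to 13.09. By both lists the upper crypt array was thus nearer to the villus tops than these bottoms were, and the order of the labels is not that of the markers.

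**Figure D5:**
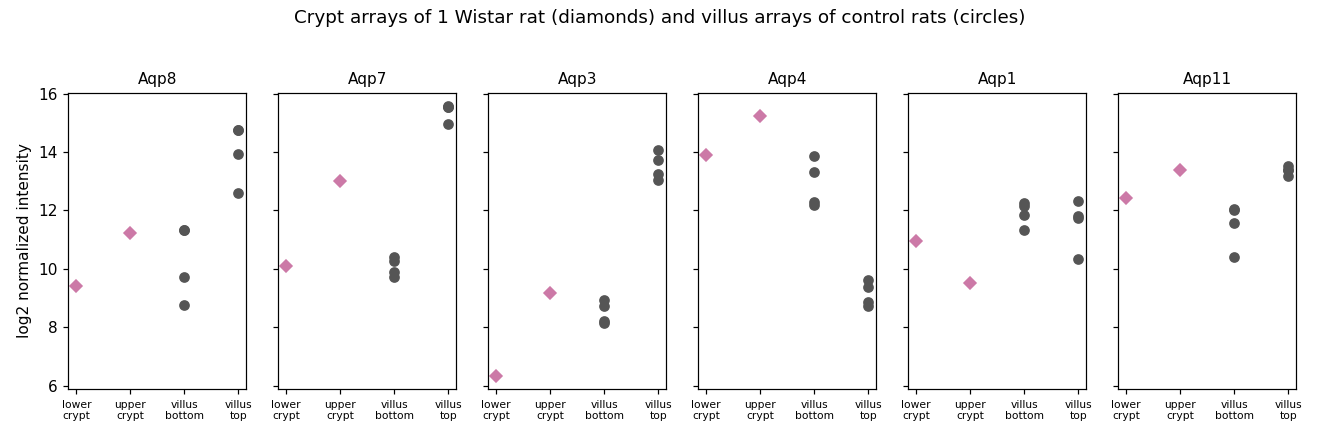
Log2 level of the 6 aquaporin genes in arrays labelled lower crypt, upper crypt, villus bottom and villus top, an order that the markers do not follow. Lower and upper crypt are 1 array each from a single +/+ rat of a separate experiment, and villus bottom and top are from the 4 control rats. Aqp4 is highest in the upper crypt at 15.25 and lowest in the villus tops at 8.71 to 9.61, and Aqp7 is highest in the villus tops at 14.96 to 15.57.

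The genes listed for ion and solute transport, which include regulators such as Sgk1 and Guca2a, were mostly higher at the villus top. Of 20 listed ion and solute transport genes, 18 were measured, and limma called 12 higher and 4 lower at the top (median 0.76, against 0.02 for all probe sets, of which 25.6% were called higher and 28.9% lower). The largest rises were in Sgk1, a kinase that acts on sodium channels (3.29 ± 0.14, adjusted p = 6.89e-15), Slc9a2, a sodium-proton exchanger (2.84, 3.29e-14), Slc5a1, the sodium-glucose cotransporter (1.90, 1.75e-07), and Guca2a, which encodes guanylin (1.73, 4.4e-10). The 4 of 18 that fell, a share not above the 28.9% of all probe sets, were the potassium channel Kcnq1 (-2.64, 1.94e-09), the cotransporter Slc12a2 (-1.88, 1.11e-14), the channel subunit Kcne3 (-1.13, 9.14e-06) and the chloride channel Cftr (-0.27, 0.0287). In glycerol handling 9 of 11 genes were called higher and 1 lower (median 1.31), against the same 25.6% and 28.9% of all probe sets, led by Gk, glycerol kinase (2.22, 1.21e-12), while Lpl, which releases fatty acids from circulating fat, was lower (-0.80, 0.000103).

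Between groups, 0 genes of either list were called on the mean of both segments. In the comparisons where members were tested, 0% to 0.0679% of all probe sets were called, so a count of 0 is near the background. In top arrays alone, 1 was called lower in Belgrade than in control rats, Guca2b, which encodes uroguanylin (-2.13 ± 0.42, adjusted p = 0.045). Of all probe sets, 0.0905% were called in that comparison, in either direction. In control rats Guca2b was higher at the top than at the bottom by 2.63 ± 0.43 (adjusted p = 5.48e-05).

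Guca2b was also among the 3 genes whose level over the 20 counted samples was most like that of Aqp8, out of 12957 genes, with Pearson's r of 0.81 and Spearman's rho of 0.61, after Cops4 (0.85 and 0.74) and Cndp1 (0.83 and 0.61). Without the 2 samples farthest from the median, r fell to 0.63 for Guca2b, 0.67 for Cops4 and 0.59 for Cndp1, so the likeness rested partly on those samples. Aqp7 was most like Apoa4, an apolipoprotein of chylomicrons (r = 0.88, rho = 0.91, 0.85 without the 2 farthest), then Tsku and Abhd4 (r = 0.85 each). Aqp4 was most like Ids, a lysosomal sulfatase (r = 0.90, rho = 0.89), Zdhhc6 and Dcaf17, and Aqp1 most like Otc, a urea cycle enzyme (r = 0.91, rho = 0.83), Aldh7a1 and Cd53. For Aqp11 the nearest was Tor1aip2 (r = 0.86, rho = 0.84), ahead of Gpr155 and Cmahp, and for Aqp3 it was Cpa4 (r = 0.76, rho = 0.72), ahead of Adgra2 and Dcun1d4. These samples share groups and arrays, so the values describe likeness and carry no test.

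Among members, the villus tops of the 20 counted samples gave r = 0.88 and rho = 0.87 for Aqp8 with Aqp11, 0.80 and 0.78 for Aqp3 with Aqp7, and 0.80 and 0.62 for Aqp1 with Aqp8. Aqp4 with Aqp8 gave r = -0.59 and rho = -0.44. In the bottoms the same pairs, in this order, gave r = 0.18, 0.27, -0.28 and -0.44. Aqp1 and Aqp11 gave r = -0.82 and rho = -0.60 in the bottoms but 0.68 and 0.72 in the tops. Among the bottoms, the stroma-marked arrays of repleted rat 3 and control rat 3 had the highest Aqp1 of their groups with the lowest Aqp11, 10.07 and 10.39.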

How the data were processed

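Deposited values were linear intensities, 1 per probe set and array, that the authors had scaled per array: from the values, the trimmed mean was 2501 on 42 arrays and 2876 on 4. The signal algorithm and genome build are not given in the sources used here. Of 31099 probe sets, 57 controls were left out. A pseudocount of 44 (the 10th percentile) was added, log2 taken and, because array medians spanned 0.93 (limit 0.5), the villus arrays were quantile normalized. The crypt arrays were mapped to the same distribution. Array median intensity was 597 to 1179, and the number of arrays limits the precision. Probe sets above the 40th percentile of their array on at least 3 villus arrays were kept (26517 of 31042). Since scaling fixes each array's mean, a change common to most genes is not visible.

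Rats were compared with limma 3.58.1 (lmFit, eBayes with a trend; R 4.3.3 and the data.table package, version 1.17.8), in a single model of 6 groups fitted to each rat's average of both segments, and top with bottom by the difference within each rat. Two-sided p-values had Benjamini-Hochberg adjustment across the 26517 probe sets, with calls made under 0.05. The fit was tested on simulated data. Pairs of rats with a robust SD of differences under 0.2 (0.147 to 0.179 over 6209 bright probe sets, against 0.231 or more for the other 28 pairs) were averaged. Labels name separate rats, so p-values measure the spread between rats. Rat numbers were not used as pairs, because rats with the same number did not all correlate above 0.1 in any (0 of 15) of the group pairs. Sexes are not given. Xist was high in 1 of 3 repleted, 0 of 4 deficient, 1 of 4 Belgrade, 1 of 4 and 3 of 3 iron-fed Belgrade and 1 of 4 control rats, and its level as a covariate was an alternative.

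Named genes are every member probe set, the 3 genes most like each member by Pearson's r, at most 4 called genes per pathway list and direction, and Slc11a2. Members and lists were chosen with earlier results of these data known. All 6 members matched RefSeq by gene ID, and start regions are from RefSeq GRCr8. Other alternatives were the pseudocount, the filter, the normalization, the trend, counting every rat, a block for the rat number and leaving out each sample.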

Additional observations from a re-analysis of the deposited data

Results flagged for a closer look

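In 36 groups of 4 rats' values, a rat was taken as far from its group when its gap to the nearest other exceeded Dixon's 95% critical value, which chance alone passes in about 1 of 20 groups. In the villus tops of deficient rats, Aqp4 was at 6.73 in rat 4, while the other 3 were at 13.97 to 14.50 (ratio 0.932). In the villus bottoms of Belgrade rats fed iron for 3 days, Aqp3 was at 6.99 in rat 1 and at 6.23 to 6.27 in the others (ratio 0.954), all under the 40th percentile of their array.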

How the results depend on the processing

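The count of members called between top and bottom was 6 under each alternative that leaves out 1 sample (6 to 6 over 20), and 7 with values as deposited and with median centring, where the second Aqp1 probe set was added. For repleted against deficient rats it was 0, or 0 to 1 when 1 sample was left out, and the 1 was Aqp4 without deficient rat 4. Repleted against control had 1 member called (Aqp8) where every rat was counted separately (-3.49, adjusted p = 0.025). With the replicate block, a block for the rat number in a fit of every rat, 1 member (Aqp8) was called in repleted against control (-3.51, 0.00559) and 1 (Aqp8) in Belgrade against control (-3.08, 0.0404), although rat numbers did not pair the rats. The change of gradient in Belgrade against control had 2 members with median centring, 2 with every rat counted, 2 with the block and 4 without repleted rat 3 in the shared spread, an alternative added after the data were seen. These were the first 2 Aqp4 probe sets, joined in the last setting by Aqp8 (adjusted p = 0.0442) and Aqp11 (0.0205). The other comparisons on the mean of both segments, and the change of gradient in repleted against deficient rats, stayed at 0 members under the alternatives run. Top arrays alone did not. In Belgrade against control tops, Aqp8 passed under 7 alternatives, Aqp1, Aqp3 and Aqp4 with every rat counted and with the block, and the second Aqp4 probe set with the block. In repleted against control tops, Aqp8 passed under 5 alternatives, Aqp11 with median centring (-1.14, 0.029) and without repleted rat 3 (0.049), and Aqp1 with the block (-1.49, 0.043). Over all probe sets, the repleted against control count was 18 and ranged from 0 (median centring, no trend, or without control rats 1 and 2) to 606 with every rat and 1606 with the block. Belgrade against control gave 3, with 0 to 91 under the alternatives, and its change of gradient gave 0, with up to 380 without repleted rat 3 in the shared spread. Repleted against deficient gave 0, with 508 when deficient rat 4 was left out, and 88 and 12 when repleted rats 1 and 2 were left out in turn. Of 4383 single values recomputed, 43 gained a call, 14 lost one, none that was called turned sign, and 244 uncalled ones turned sign and stayed uncalled. With median centring the median difference of all probe sets was -0.20 for repleted against deficient and -0.18 for repleted against control, and with values as deposited it was -0.13 for Belgrade against control. Groups of 3 or 4 samples gave wide intervals. Levels under 8.99 are low on the array.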
